A study of Mus musculus with 103 samples.

Results

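Genes known from T cells and killer lymphocytes were followed in the hippocampus of mice that carry amyloid or tau transgenes. The 9 genes, Cd3d, Cd3e, Cd3g, Trbc2, Cd8a, Cd8b1, Nkg7, Gzma and Ms4a4b, were taken by symbol from a table of 48526 gene rows. All mice were male and on a C57BL/6J background, and each library was made from the hippocampus of 1 mouse. HO_TASTPM mice were homozygous for a mutant human APP transgene and for a second transgene, and gave 4, 4, 4 and 3 libraries at 2, 4, 8 and 18 months. HET_TASTPM mice carried 1 copy of each of the same transgenes and gave 4 libraries at each age. TAS10 mice carried the APP transgene alone, 1 copy, under the neuronal Thy1 promoter, and gave 4, 2, 3 and 4 libraries. TAU mice carried 1 copy of human tau with the P301L change under the Camk2a promoter, which is active in forebrain neurons, and gave 4, 4, 4 and 2 libraries. Wild-type mice gave 8, 8, 8 and 7 libraries. These groups hold 89 libraries in all.

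T cells recognise peptides on MHC molecules through the T cell receptor, whose alpha and beta chains are held at the membrane with the CD3 proteins that pass the signal into the cell. Killer T cells carry CD8, which binds MHC class I, and they store granzymes and other proteins in granules that they release onto a target cell. The healthy brain holds few T cells, mostly at its borders. In a bulk sample, a change in the number of T cells and a change in the RNA of each cell cannot be told apart.

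Cd3d, Cd3e and Cd3g encode the delta, epsilon and gamma chains of CD3, and Trbc2 encodes the constant part of a T cell receptor beta chain. Cd8a and Cd8b1 encode the alpha and beta chains of CD8. Nkg7 encodes a granule protein of natural killer (NK) cells and killer T cells, and Gzma encodes granzyme A. Ms4a4b encodes a membrane protein of the Ms4a family found on mouse T cells. On the GRCm38 build, 3 of the genes lie on chromosome 9 and 3 on chromosome 6. The starts of Cd3g and Cd3d lie 1355 bases apart on opposite strands, and 35933 bases separate Cd8b1 from Cd8a.

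The 250 bases before the RefSeq start of 4 members are shown, because members with very different courses have neighbouring or similar roles: the divergent pair Cd3g and Cd3d, the CD8 chain Cd8a and the granule gene Gzma. Each is written 5′ to 3′ on the strand of its gene, from RefSeq on GRCm38.p6. Capitals mark matches, on either strand, to TGTGGT (known from RUNX factors), AGGAAG (ETS factors) and CAGNTG (an E-box).
Cd3g, chr9:44980432-44980681, minus strand: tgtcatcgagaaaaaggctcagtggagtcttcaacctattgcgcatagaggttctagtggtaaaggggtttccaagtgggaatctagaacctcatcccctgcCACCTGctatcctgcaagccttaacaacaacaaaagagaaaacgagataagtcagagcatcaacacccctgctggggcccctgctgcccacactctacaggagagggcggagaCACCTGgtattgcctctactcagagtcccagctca
Cd3d, chr9:44981536-44981785, plus strand: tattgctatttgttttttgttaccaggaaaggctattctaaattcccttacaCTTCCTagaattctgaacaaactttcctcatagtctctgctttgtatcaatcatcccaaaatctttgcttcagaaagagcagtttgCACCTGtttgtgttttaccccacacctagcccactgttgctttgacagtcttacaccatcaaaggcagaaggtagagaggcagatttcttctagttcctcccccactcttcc
Cd8a, chr6:71373177-71373426, plus strand: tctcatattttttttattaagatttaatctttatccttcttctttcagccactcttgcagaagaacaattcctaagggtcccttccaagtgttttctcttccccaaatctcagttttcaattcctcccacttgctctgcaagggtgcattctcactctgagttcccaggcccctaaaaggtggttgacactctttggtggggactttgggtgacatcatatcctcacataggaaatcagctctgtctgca
Gzma, chr13:113100982-113101231, minus strand: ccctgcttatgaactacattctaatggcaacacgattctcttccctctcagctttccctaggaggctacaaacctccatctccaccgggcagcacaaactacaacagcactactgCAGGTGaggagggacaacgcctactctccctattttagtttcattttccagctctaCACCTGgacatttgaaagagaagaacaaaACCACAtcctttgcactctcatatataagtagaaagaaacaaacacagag

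Cd3g held 2 E-box matches, Cd3d held 1 E-box and 1 ETS match, Gzma held 1 RUNX and 2 E-box matches, and Cd8a held none of these letters. Entries in the promoter table were found for 7 members, and of these 2 held the RUNX letters, 3 the ETS letters and 4 the E-box. Among all 27025 promoter windows of the same length, 14.2% held the RUNX letters, 29.2% the ETS letters and 44.5% the E-box. Cd8b1 and Trbc2 were not matched.

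Values are in TPM, a share of all transcripts in the library, and are scaled for transcript length, so that levels can be set beside each other between genes. The depth of single libraries is unknown, and a value of 0 is given as listed at 0, since at such low levels it can be a failed estimate. Most members were near the floor. Over the 89 libraries the median was 2.94 TPM for Cd3d and 1.57 TPM for Trbc2, against 0.381 TPM for Ms4a4b, 0.206 TPM for Cd3g, 0.184 TPM for Nkg7, 0.172 TPM for Gzma, 0.149 TPM for Cd8a, 0.0751 TPM for Cd3e and 0.0029 TPM for Cd8b1. Nkg7 was listed at 0 in 43 libraries (48.3%), Gzma in 26, Cd3e in 12 and Trbc2 in 4. All 9 genes entered the test, for which the average of some group had to reach 0.5 TPM. Among the groups reported here, Cd8a and Cd8b1 passed through 18-month TAU mice alone, Cd3e through 18-month HO_TASTPM and TAU mice, Cd3g and Nkg7 through these and 8-month HO_TASTPM mice, and Gzma through 4-month HO_TASTPM and TAS10 mice. For these genes the groups with high values therefore brought them into the test.

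Some libraries stood apart before any of these genes was considered. A score of genes from neighbouring brain regions minus hippocampal neuron genes was above 1.5 in 12 libraries, where the lowest was 1.58, while the highest of the others was 1.26. The 12 were TAU mouse 1809 at 2 months and mice 1816 and 1817 at 4 months, HO_TASTPM mice 966, 810, 811, 812, 452 and 154, TAS10 mouse 2425, and wild-type mice 1462 and 2342. In all, 3 libraries went against their label: HO_TASTPM mouse 452 and TAS10 mouse 2443, both 8 months old, had 532 and 479 TPM of App against 386 to 580 TPM in wild-type mice, and TAU mouse 1809 had 174 TPM of Mapt against 123 to 191 TPM in wild-type mice. No 18-month TAU library was in either set. At 18 months the score was 0.92 to 1.58 in HO_TASTPM mice and 0.18 and 0.87 in TAU mice, against -0.68 to 0.32 in wild-type mice.

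**Figure D1:**
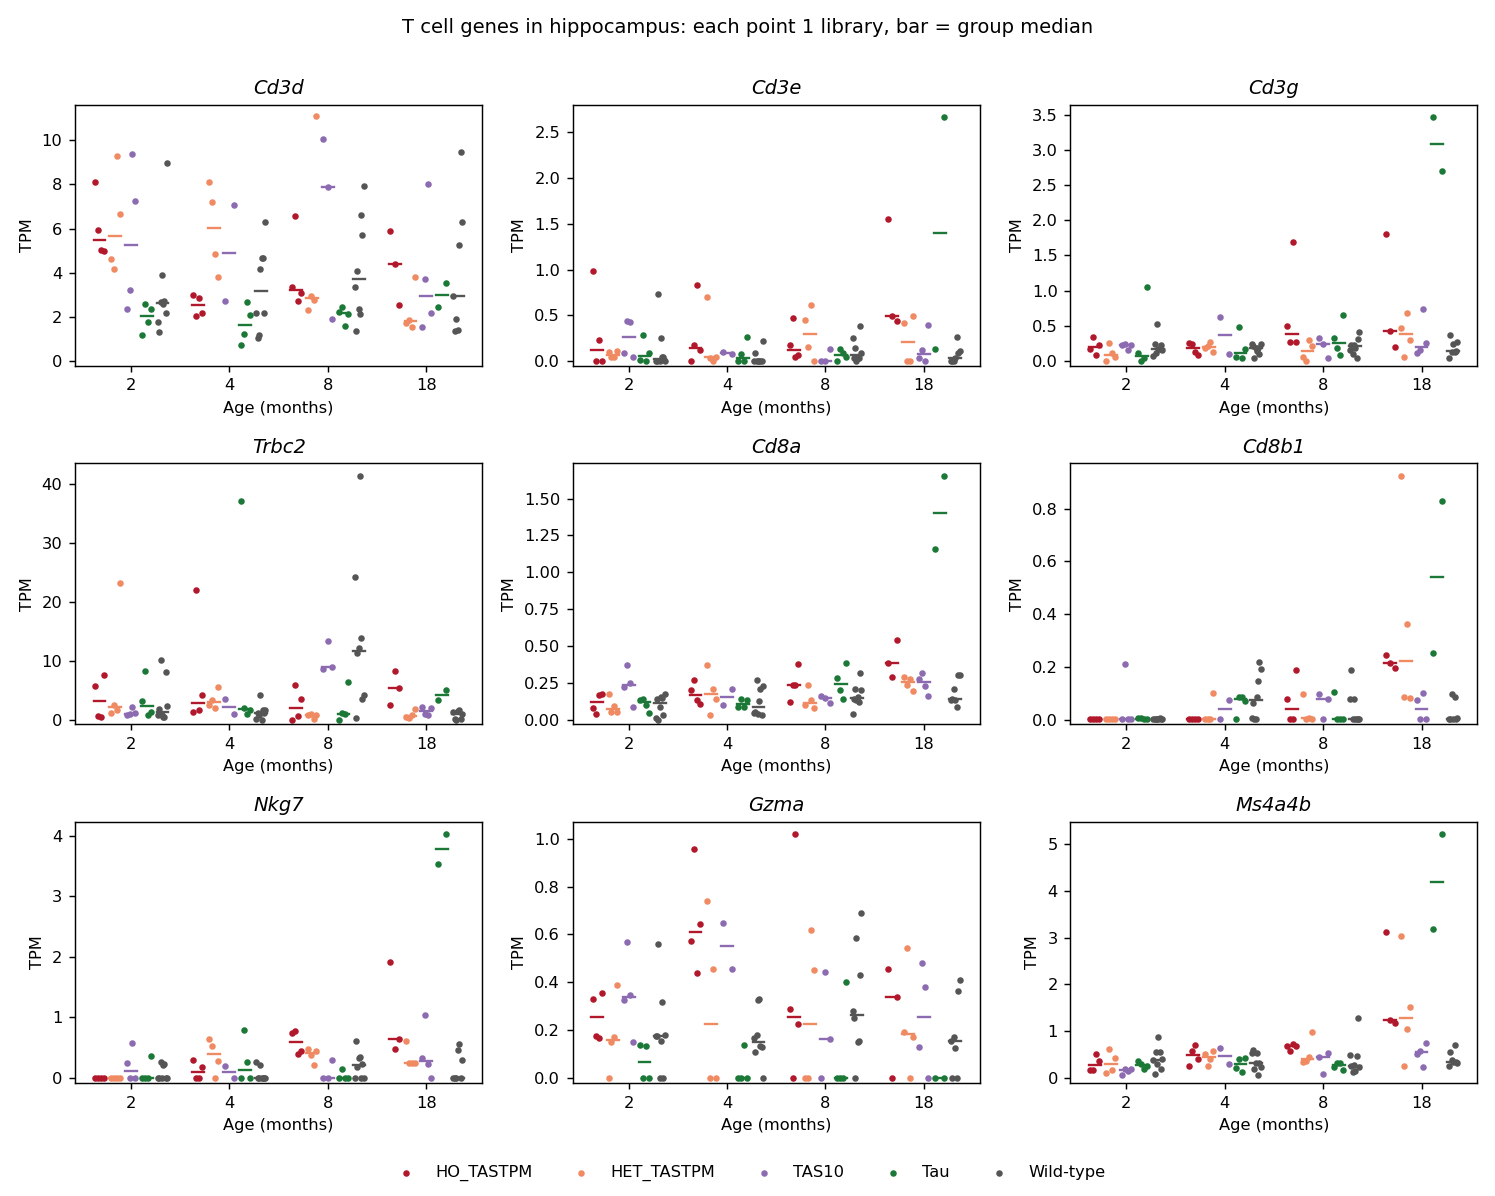
TPM (y axis) of the 9 genes in each of 89 libraries by age in months (x axis), coloured by line, with a bar at each group's median. The 2 TAU libraries at 18 months lie above all others in Cd3g, Cd8a, Nkg7 and Ms4a4b, while Cd3d and Trbc2 spread widely in all lines and ages.

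In 18-month TAU mice 6 of the 9 members rose against wild-type mice of the same age: Cd3e, Cd3g, Cd8a, Cd8b1, Nkg7 and Ms4a4b. In this comparison 11.9% of all 26272 genes tested were higher. The members' median log2 difference was 1.47, beside -0.03 over all genes tested. Of the 6, Cd8a and Cd8b1 entered the test through these TAU mice alone, and Cd3e, Cd3g and Nkg7 through these and HO_TASTPM mice. The 9 genes were also chosen with earlier results of these data known. This count and median, and those of the other lines below, are therefore descriptions and not independent support. Differences are on the log2(TPM + 0.5) scale, which understates the change of low genes, and a gene was called at an adjusted p under 0.05 (limma, Benjamini-Hochberg over all genes tested). The two-sided p-values use the spread between mice pooled over all 24 groups, in most of which these genes lay near the floor. The TAU group held 2 mice, and the p-values do not measure the spread of these 2 alone. In a fit of only the groups compared, Cd3e was not called. Without the 12 libraries set apart, or without those against their label, the count in TAU mice was 6.

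Among the CD3 chains, Cd3g had 3.46 and 2.70 TPM in TAU mice 1149 and 1150, against 0.0368 to 0.368 TPM in 7 wild-type mice (median 0.135). Both TAU libraries were far above every wild-type library, with a ratio of means of 16.6. The log2 difference was 2.39 (SE 0.30, adjusted p = 3.85e-10). Cd3e had 0.135 TPM in TAU mouse 1149 and 2.67 TPM in mouse 1150, against 0 to 0.262 TPM in wild-type mice. The TAU value of mouse 1149 lay within the wild-type range, so the call for Cd3e (1.33, SE 0.34, adjusted p = 0.00218) came from mouse 1150: without that mouse the difference was 0.17 and was not called. Reads of Cd3e can also be shared with Gm48720, a gene model that overlaps it on the same strand.

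Both CD8 chains rose. Cd8a had 1.15 and 1.66 TPM in TAU mice, against 0.0868 to 0.303 TPM in wild-type mice (median 0.142), a log2 difference of 1.47 (SE 0.15, adjusted p = 6.51e-13). Cd8b1 had 0.252 and 0.830 TPM in TAU mice, against 0.0013 to 0.0970 TPM in wild-type mice (median 0.0016), a log2 difference of 0.93 (SE 0.16, adjusted p = 4.02e-06). For both chains the TAU and wild-type values did not overlap.

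Nkg7 had 3.53 and 4.03 TPM in TAU mice and was listed at 0 in 4 of 7 wild-type libraries, whose highest value was 0.557 TPM. Its log2 difference of 2.71 (SE 0.32, adjusted p = 4.56e-11) was larger than that of any other member. Ms4a4b had 3.19 and 5.21 TPM in TAU mice, against 0.249 to 0.696 TPM in wild-type mice (median 0.347), a log2 difference of 2.35 (SE 0.31, adjusted p = 1.54e-09). Gzma, the other granule gene, did not rise with them: it was listed at 0 in both TAU libraries, against 0 to 0.411 TPM in wild-type mice, and its difference was not called (-0.40, adjusted p = 0.406). It was listed at 0 in 2 of 7 wild-type libraries too. In TAU mice at 2, 4 and 8 months it was listed at 0 in 2, 3 and 3 of 4 libraries.

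Neither of the members with the highest median level was called. Cd3d had 2.42 and 3.55 TPM in TAU mice, within the 1.38 to 9.48 TPM of wild-type mice (-0.14, SE 0.54, adjusted p = 0.941). Trbc2 had 3.34 and 4.99 TPM in TAU mice, above all wild-type mice (0 to 1.57 TPM), but its spread over the other groups was large and the difference of 2.14 (SE 1.05) was not called (adjusted p = 0.144). Every TAU library was above every wild-type library in 6 of the 9 members (Cd3g, Cd8a, Cd8b1, Trbc2, Nkg7 and Ms4a4b), a pattern that 12.1% of all genes tested showed in these mice.

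In 18-month HO_TASTPM mice 5 members rose against wild-type mice: Cd3e, Cd8a, Cd8b1, Nkg7 and Ms4a4b, where 6.63% of all genes tested were higher. The members' median log2 difference was 0.75, beside 0.01 over all genes. Ms4a4b had 1.18, 3.12 and 1.24 TPM in HO_TASTPM mice 97, 113 and 154, against 0.249 to 0.696 TPM in wild-type mice. All 3 mice were above the wild-type range (1.28, SE 0.26, adjusted p = 2.07e-04). Cd3e had 0.435, 1.55 and 0.492 TPM in HO_TASTPM mice, against 0 to 0.262 TPM in wild-type mice (1.13, SE 0.30, adjusted p = 0.00624), again with no overlap.

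Cd8b1 had 0.195, 0.246 and 0.214 TPM in the same HO_TASTPM mice, against 0.0013 to 0.0970 TPM in wild-type mice (0.45, SE 0.14, adjusted p = 0.0286). Its 3 values were close together and all above the wild-type range. Cd8a had 0.542, 0.385 and 0.290 TPM in HO_TASTPM mice, against 0.0868 to 0.303 TPM in wild-type mice (0.40, SE 0.13, adjusted p = 0.0441), where mouse 154 lay inside the wild-type range. This call was lost in 7 of the 10 fits that left out 1 mouse. Nkg7 had 0.651, 1.92 and 0.474 TPM in HO_TASTPM mice, against 0 to 0.557 TPM in wild-type mice (1.10, SE 0.27, adjusted p = 0.00344), and mouse 154 again overlapped.

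Cd3g had 0.194, 1.80 and 0.429 TPM in HO_TASTPM mice, against 0.0368 to 0.368 TPM in wild-type mice, and was not called (0.75, adjusted p = 0.0547). Mouse 113 was the highest of the 3 in 7 of the 9 members. Without it only Ms4a4b was still called, while Nkg7 and Cd3e had differences of 0.70 and 0.77 with adjusted p = 0.218 and 0.217. All HO_TASTPM libraries were above all wild-type libraries in 4 members (Cd3e, Cd8b1, Trbc2 and Ms4a4b), as 8.83% of all genes tested were. Without the 12 libraries set apart, which include mouse 154, 4 members were called, and Cd8b1 was not. That call was lost without any 1 of the 3 HO_TASTPM mice. Without the libraries that went against their label 6 were called, Cd3g among them.

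In 18-month HET_TASTPM mice 2 members rose, Cd8b1 and Ms4a4b, where 4.67% of all genes tested were higher. The members' median log2 difference was 0.29, beside 0 over all genes. Ms4a4b had 3.04, 0.256, 1.05 and 1.53 TPM in HET_TASTPM mice 492, 493, 509 and 510, against 0.249 to 0.696 TPM in wild-type mice (0.91, SE 0.24, adjusted p = 0.00937). Of the 4 mice, 3 were above the wild-type range and mouse 493 was near its lower end. Cd8b1 had 0.925, 0.0847, 0.361 and 0.0830 TPM, against 0.0013 to 0.0970 TPM in wild-type mice (0.61, SE 0.13, adjusted p = 5.68e-04), so that mice 492 and 509 were high and the other pair lay in the wild-type range. Without mouse 492 neither gene was called, with differences of 0.56 for Ms4a4b and 0.34 for Cd8b1. In none of the 9 members were all HET_TASTPM libraries above all wild-type libraries, while 4.89% of all genes tested showed this.

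In TAS10 mice none of the 9 members was called at any age. Over all genes tested, 0.213%, 0.164%, 0.129% and 0.0571% were called at 2, 4, 8 and 18 months. At an unadjusted p under 0.05, 2, 1, 0 and 0 members passed. At 18 months Ms4a4b ranged from 0.230 to 0.745 TPM in TAS10 mice and from 0.249 to 0.696 TPM in wild-type mice.

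**Figure D2:**
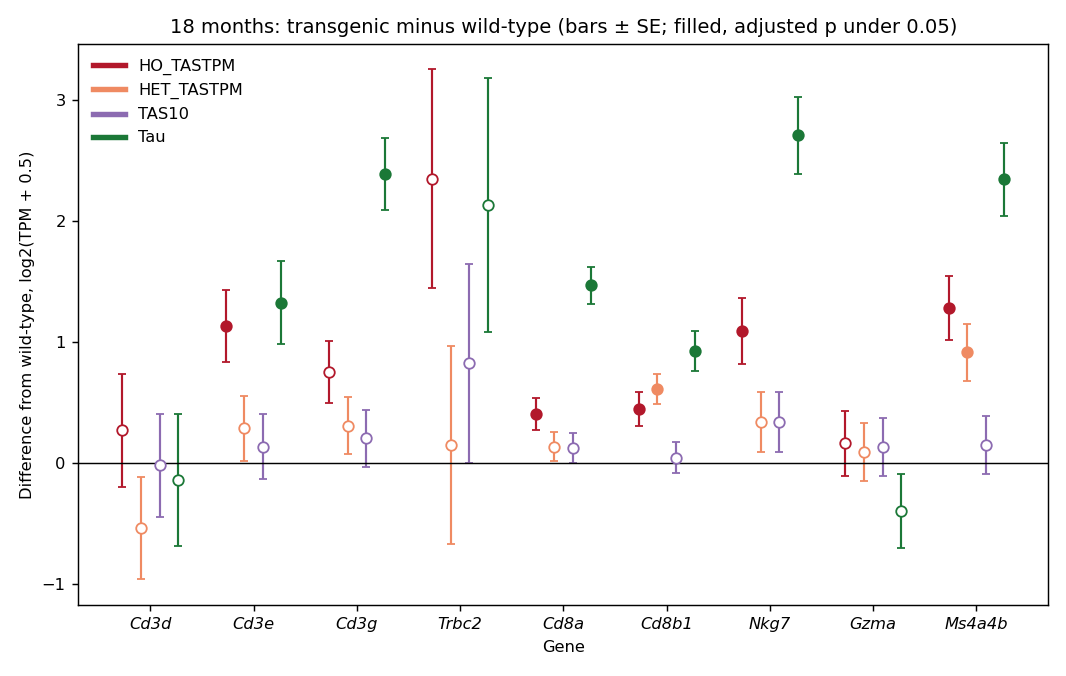
Difference from wild-type mice at 18 months on the log2(TPM + 0.5) scale (y axis) for each of the 9 genes (x axis) in HO_TASTPM, HET_TASTPM, TAS10 and TAU mice, with bars of ± 1 SE and filled points for an adjusted p under 0.05. TAU points for Cd3g, Cd8a, Nkg7 and Ms4a4b, at 2.39, 1.47, 2.71 and 2.35, lie above those of the other lines, and Cd3d, Trbc2 and Gzma have no filled point.

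Before 18 months few members changed. At 2 months none of the 9 was called in HO_TASTPM, HET_TASTPM or TAU mice against wild-type mice, where 1.86%, 0.148% and 0.586% of all genes tested were called, and 1, 1 and 0 members had an unadjusted p under 0.05. At 4 months none was called in HET_TASTPM or TAU mice (0.693% and 7.46% of all genes), and 2 and 0 members had an unadjusted p under 0.05. In HO_TASTPM mice at 4 months Gzma rose, where 9.28% of all genes tested were higher: it had 0.574, 0.957, 0.437 and 0.644 TPM in HO_TASTPM mice 809 to 812, against 0 to 0.332 TPM in 8 wild-type mice, with no overlap (0.78, SE 0.24, adjusted p = 0.0186). The count of 1 of 9 members is near that share, and this group was one of those that brought Gzma into the test. Of these 4 libraries, those of mice 810, 811 and 812 were among the 12 set apart, and without the 12 the difference was 0.69 in the mouse that was left and was not called (adjusted p = 0.885). The call was also lost without mouse 810 or without mouse 812, with differences of 0.66 and 0.77. Gzma was not called in HO_TASTPM mice at any other age.

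At 8 months none of the members was called in HO_TASTPM mice (9.08% of all genes tested) or TAU mice (0.735%), and 3 and 1 members had an unadjusted p under 0.05. Nkg7 had 0.747, 0.773, 0.405 and 0.445 TPM in HO_TASTPM mice 451 to 454, against 0 to 0.615 TPM in wild-type mice (0.65, SE 0.24, adjusted p = 0.0768). Cd3g had 0.493, 0.270, 1.70 and 0.263 TPM in HO_TASTPM mice, against 0.0387 to 0.413 TPM in wild-type mice (0.60, SE 0.23, adjusted p = 0.0848), where mouse 453 alone stood far above the others. Without the libraries that went against their label, mouse 452 among them, 2 members passed at 8 months, Cd3g higher and Trbc2 lower. In 8-month HET_TASTPM mice Trbc2 was lower than in wild-type mice, where 1.32% of all genes tested were lower. It had 0.835, 0.911, 0.0225 and 0.833 TPM in HET_TASTPM mice (median 0.834), against 0.205 to 41.4 TPM in wild-type mice (median 11.7). The difference was -3.00 (SE 0.80, adjusted p = 0.0150). The wild-type median was higher at this age than at 2, 4 and 18 months, where it was 1.25, 1.14 and 0.91 TPM. TAS10 mice were also high at 8 months, with 8.54 to 13.3 TPM. Their medians were 0.98, 2.17 and 1.41 TPM at 2, 4 and 18 months. In HO_TASTPM and TAU mice the 8-month medians were 2.01 and 1.01 TPM. Wild-type mice 1462 and 2342, with 24.2 and 41.4 TPM, are among the libraries set apart, and the call was lost without the set. It was also lost without HET_TASTPM mouse 476, the lowest of its group.

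The age course was tested within each line as 18 months minus 2 months. In wild-type mice none of the 9 members was called, while 9.56% of all genes tested were, and 1 member, Cd8a, had an unadjusted p under 0.05. In TAU mice the same 6 members as against wild-type mice rose with age (10.8% of all genes were higher), by 2.90 for Nkg7, 2.56 for Ms4a4b, 2.32 for Cd3g, 1.65 for Cd8a, 1.28 for Cd3e and 0.99 for Cd8b1. The value for Cd3e rests on mouse 1150: without it the difference was 0.12 (adjusted p = 0.971), and the call was also lost with a pseudocount of 0.1 or in a fit of only the groups compared. That fit lost Cd3g and Cd8b1 as well. Ms4a4b ranged from 0.196 to 0.364 TPM at 2 months, 0.138 to 0.437 TPM at 4 months and 0.171 to 0.330 TPM at 8 months in TAU mice, and had 3.19 and 5.21 TPM at 18 months. Up to 8 months all of these values lay within the range of wild-type mice of the same age. Without TAU mouse 1809, the library that went against its label, 6 members were still called.

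In HO_TASTPM mice 4 members rose between 2 and 18 months (6.74% of all genes were higher): Nkg7 by 1.48, Ms4a4b by 1.46, Cd8a by 0.56 and Cd8b1 by 0.52. The rises of both CD8 chains depended on single mice and settings. That of Cd8a was not called without mouse 97 (0.45), with quantile normalization (0.34) or with lane as a covariate (0.46), and that of Cd8b1 was not called without mouse 113 (0.49) or 154 (0.52), without the libraries set apart (0.52), with quantile normalization (0.17) or with lane as a covariate (0.50). Nkg7 was listed at 0 in all 4 HO_TASTPM libraries at 2 months, had a median of 0.0922 TPM at 4 months, 0.596 TPM at 8 months and 0.651 TPM at 18 months. The median of Ms4a4b over the same ages was 0.269, 0.493, 0.683 and 1.24 TPM. In HET_TASTPM mice Cd8b1 (0.68) and Ms4a4b (1.07) rose (2.74% of all genes were higher), and Nkg7 was listed at 0 in all 4 libraries at 2 months and ranged from 0.242 to 0.607 TPM at 18 months. Without HET_TASTPM mouse 492 neither rise was called, at 0.41 for Cd8b1 and 0.72 for Ms4a4b, and that of Ms4a4b was not called without 2-month mouse 1105 either (0.94). In TAS10 mice none was called (1.39% of all genes), with 1 member at an unadjusted p under 0.05.

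The difference between the age courses was tested directly, as the change between 2 and 18 months in a line minus that in wild-type mice. In TAU mice 6 members had a larger rise than wild-type mice (7.1% of all genes tested were higher): Nkg7 by 2.73 (SE 0.40, adjusted p = 1.15e-07), Ms4a4b by 2.55 (SE 0.38, adjusted p = 2.39e-07), Cd3g by 2.36, Cd8a by 1.44, Cd3e by 1.36 and Cd8b1 by 0.92. For Cd3e the value was 0.20 without mouse 1150 and was not called, and the call was also lost without 2-month TAU mouse 1825 (1.29), with a pseudocount of 0.1 and in a fit of only the groups compared. In HO_TASTPM mice 2 did (5.12% of all genes): Ms4a4b by 1.45 (SE 0.35, adjusted p = 0.00356) and Nkg7 by 1.31 (SE 0.37, adjusted p = 0.0149), but neither was called without mouse 113. In HET_TASTPM mice none passed (1.6% of all genes), with Cd8b1 at 0.61 (adjusted p = 0.0505) and Ms4a4b at 1.06 (adjusted p = 0.0848), and 3 members had an unadjusted p under 0.05.

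The lines were also compared with each other at matched ages. HO_TASTPM mice were lower than TAU mice at 18 months in 4 members (3.05% of all genes tested were lower): Cd3g by a log2 difference of -1.64 (SE 0.34, adjusted p = 4.27e-04), Nkg7 by -1.61 (SE 0.36, adjusted p = 0.00127), Cd8a by -1.07 (SE 0.18, adjusted p = 6.32e-06) and Ms4a4b by -1.06 (SE 0.35, adjusted p = 0.0407). For Cd3g, Cd8a, Nkg7 and Ms4a4b every HO_TASTPM value was under every TAU value, closest in Ms4a4b with 3.12 TPM in HO_TASTPM mouse 113 and 3.19 TPM in TAU mouse 1149. The call for Ms4a4b held in only 1 of 5 fits that left out 1 mouse. Cd3e, with a difference of -0.19 (SE 0.39), was not shown to differ. HO_TASTPM mice were not called different from HET_TASTPM mice in any member at 18 months (6.42% of all genes tested were called), and 3 members had an unadjusted p under 0.05. At 8 months Cd3g was higher in HO_TASTPM than in HET_TASTPM mice (4.67% of all genes were higher), with 0.493, 0.270, 1.70 and 0.263 TPM against 0.0605, 0.0002, 0.297 and 0.215 TPM (0.75, SE 0.26, adjusted p = 0.0420). The highest HET_TASTPM library overlapped the HO_TASTPM values, and without HO_TASTPM mouse 453 the difference was 0.40 and was not called, nor was it called without HET_TASTPM mouse 460 (0.69) or 475 (0.64).

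The sum of the 7 members other than Cd3d and Trbc2, which varied widely within groups, gave an order of single mice. It was 17.1 and 11.7 TPM in TAU mice 1150 and 1149, 9.48 TPM in HO_TASTPM mouse 113 and 5.93 TPM in HET_TASTPM mouse 492, all 18 months old, followed by 4.14 TPM in 8-month HO_TASTPM mouse 453. The other HO_TASTPM mice at 18 months had 3.53 and 3.14 TPM, HET_TASTPM mice ranged from 1.41 to 5.93 TPM, TAS10 mice from 1.48 to 2.69 TPM, and wild-type mice from 0.571 to 1.81 TPM. By this sum 1 mouse stood above the others of its group in HO_TASTPM and HET_TASTPM mice, mouse 113 and mouse 492. With Cd3d and Trbc2 included the order changed. At 18 months the sum of all 9 was 25.6 and 17.5 TPM in TAU mice 1150 and 1149. It was 17.9, 15.7 and 11.4 TPM in HO_TASTPM mice 113, 154 and 97, and 8.01 and 8.62 TPM in HET_TASTPM mice 492 and 510. Trbc2 alone was 41.4 TPM in 8-month wild-type mouse 2342.

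Cd3d and Trbc2 varied widely within groups, and other measures of the libraries moved with them. Trbc2 had a median of 5.76 TPM (0.879 to 41.4) in the 12 libraries set apart by region genes and 1.31 TPM (0 to 23.1) in the other 77, and its correlation with the region score was 0.56 over 89 libraries. Trbc1, a near-identical copy, lies 6849 bases away, and reads can be split between the copies, so that the level of each is uncertain. The genes most like Trbc2 across libraries were A830009L08Rik (r = 0.81) and Gm10334 (r = 0.79). Cd3d was never at 0 and was at 1 TPM or more in 88 libraries. It had a median of 7.16 TPM in the 10 libraries with lane number 5, against medians between 2.20 and 3.36 TPM at the other lane numbers. Some libraries with the same lane number share an index pair, so a lane number can pool more than 1 physical lane. The genes most like Cd3d were Gm15726 (r = 0.68), G530011O06Rik (r = 0.68) and Mid1 (r = 0.64). Although Cd3d and Cd3g share their upstream region, the correlation between them was 0.02. The part of region and lane in these levels was not tested.

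**Figure D3:**
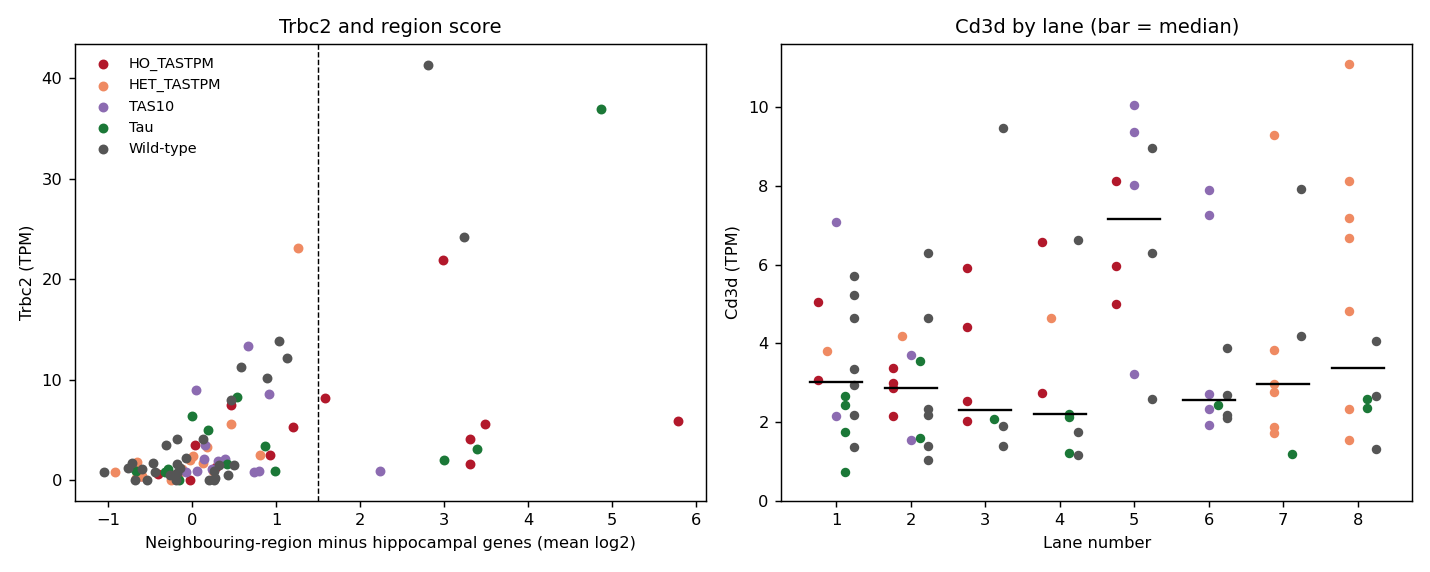
Left, TPM of Trbc2 (y axis) against the region score (x axis, mean log2 of neighbouring-region genes minus hippocampal genes), with a dashed line at 1.5; right, TPM of Cd3d (y axis) by lane number (x axis), with a bar at the median of each lane. Each of the 89 libraries is a point coloured by line. The highest Trbc2 values, up to 41.4 TPM, lie to the right of the line, and Cd3d has its highest median, 7.16 TPM, at lane number 5.

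Of the other members, 5 varied together over the 89 libraries. Pairwise correlations of log2 values among Cd3g, Cd8a, Cd8b1, Nkg7 and Ms4a4b ran between 0.47 and 0.67, and between -0.04 and 0.28 once the mean of each group was removed. Cd3e went with Ms4a4b at 0.58, and at 0.42 within groups. Over all libraries Gzma did not vary with them, with correlations between -0.18 and 0.08 to the other 6. Once the mean of each group was removed these ran between -0.15 and 0.25, so within groups Gzma was not set apart. Of the genes outside the list, those most like the members' mean were Gimap3 (r = 0.81), which encodes a lymphocyte GTPase, the chemokines Cxcl16 and Cxcl13 (both 0.81), Anxa4 (0.79), Lox (0.78), Cd44 (0.78), an adhesion receptor, Gbp5 (0.78), an interferon-induced GTPase, Cd74 (0.78), the invariant chain of MHC class II, and the MHC class I genes H2-Q7 and H2-K1 (both 0.78). Gimap3 had 2.13 to 3.15 TPM in 18-month TAU mice and 0.93 to 1.43 TPM in HO_TASTPM mice, against 0.09 to 0.36 TPM in wild-type mice. Within groups its correlation with the members' mean was 0.32, and that of Cd74 was 0.54. These libraries share lines and ages, and the correlations are descriptions.

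Other genes of T cells were counted from lists by role. At 18 months 11.9% of all genes tested were higher in TAU mice, 6.63% in HO_TASTPM mice and 4.67% in HET_TASTPM mice, and each count below is to be read against these shares. The listed genes met the same filter of 0.5 TPM. Tested were 9 of 14 killer and effector genes, 4 of 10 NK receptor genes and 2 of 7 gamma-delta T cell genes. Genes near 0 in wild-type mice can have entered through the groups where they were high. These counts are therefore descriptions and not independent support. Of 22 other T cell genes tested, 5 rose in TAU mice at 18 months, 3 in HO_TASTPM mice and 1 in HET_TASTPM mice, with medians of 0.56, 0.26 and 0.20. The HET_TASTPM count is near the share of all genes. Lcp2, an adaptor behind the T cell receptor that myeloid cells also express, had 10.4 and 6.48 TPM in TAU mice and 3.36 to 5.56 TPM in HO_TASTPM mice, against 1.06 to 2.43 TPM in wild-type mice. Its log2 difference was 2.10 in TAU mice and 1.35 in HO_TASTPM mice. Cd2, an adhesion receptor of T and NK cells, had 0.295 and 1.34 TPM in TAU mice (1.23, adjusted p = 1.37e-06) and 0.204 to 0.721 TPM in HO_TASTPM mice (0.81, adjusted p = 5.54e-04), against 0 to 0.104 TPM in wild-type mice. Cd5, a T cell surface receptor, rose by 0.79 and 0.82 in the same lines.

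Of 9 killer and effector genes tested, 6 rose in TAU mice, 2 in HO_TASTPM mice and 1 in HET_TASTPM mice, against 11.9%, 6.63% and 4.67% of all genes tested, with medians of 0.93, 0.30 and 0.07. Ctsw, a cathepsin of killer lymphocytes, had 3.22 and 2.77 TPM in TAU mice (2.09), 0.884 to 1.68 TPM in HO_TASTPM mice (1.15) and 0.652 to 2.15 TPM in HET_TASTPM mice (0.94), against 0.105 to 0.811 TPM in wild-type mice, and was called in all 3 lines. Gzmb, which encodes granzyme B, had 0.571 and 0.688 TPM in TAU mice (0.99, adjusted p = 3.73e-07), against 0 to 0.181 TPM in wild-type mice, in the same TAU libraries in which Gzma was listed at 0. In HO_TASTPM mice Gzmb ranged from 0 to 0.946 TPM (0.62, adjusted p = 5.06e-04). Xcl1, a chemokine of killer lymphocytes, had 1.89 and 1.53 TPM in TAU mice (1.78), against 0 to 0.433 TPM in wild-type mice, and was listed at 0 in all 3 HO_TASTPM and all 4 HET_TASTPM libraries.

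Of 4 NK receptor genes tested, 2 rose in TAU mice (11.9% of all genes) and none in HO_TASTPM or HET_TASTPM mice. Klrd1, also carried by killer T cells, had 3.11 and 3.21 TPM in TAU mice (2.10, adjusted p = 1.90e-04), against 0 to 1.10 TPM in wild-type mice. Klrb1c had 0.270 and 2.03 TPM in TAU mice (1.40), against 0 to 0.138 TPM in wild-type mice. Of 8 genes of tissue-resident or activated T cells, 5 rose and 1 fell in TAU mice, 5 rose in HO_TASTPM mice, and 2 rose and 1 fell in HET_TASTPM mice. Over all genes tested, 10.5% were lower in TAU mice and 1.15% in HET_TASTPM mice. Pdcd1, the PD-1 receptor, had 5.58 and 3.80 TPM in TAU mice (3.15) and 2.01 to 2.84 TPM in HO_TASTPM mice (2.36), against 0 to 0.175 TPM in wild-type mice. Cxcr6, the receptor of the Cxcl16 ligand, had 1.48 and 1.81 TPM in TAU mice (1.53, adjusted p = 1.01e-08) and 0.453 to 0.853 TPM in HO_TASTPM mice (0.64, adjusted p = 0.0138), against 0.0544 to 0.656 TPM in wild-type mice. Lag3, which microglia also express, had 97.0 and 64.1 TPM in TAU mice, against 5.05 to 7.09 TPM in wild-type mice. Tox, named after its values were seen, was the gene that fell in TAU and HET_TASTPM mice.

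**Figure D4:**
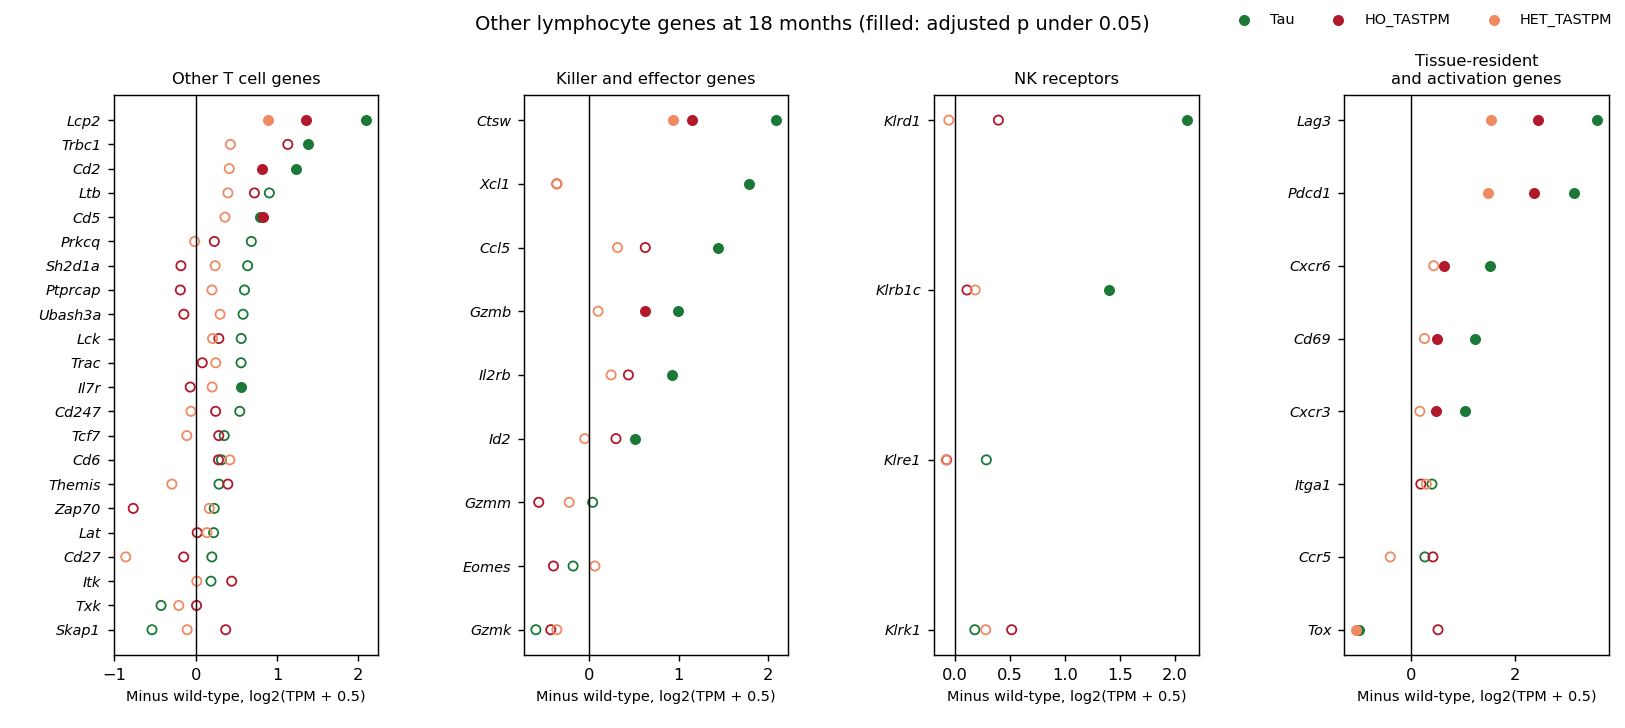
Differences from wild-type mice at 18 months on the log2(TPM + 0.5) scale (x axis) for the tested genes of 4 lists (y axis, ordered by the TAU value) in TAU, HO_TASTPM and HET_TASTPM mice, filled at an adjusted p under 0.05. The highest TAU value in each list is that of Lcp2 (2.10), Ctsw (2.09), Klrd1 (2.10) or Lag3 (3.58).

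Genes of CD4 T cells and of circulating naive T cells were not called against wild-type mice at 18 months. Cd4, which microglia also express, had 0.150 and 0.493 TPM in TAU mice, against 0.0551 to 0.700 TPM in wild-type mice (-0.23, adjusted p = 0.900), and was the only gene of its list that was tested. Of 5 circulating naive genes listed, 3 were tested, and none was called in TAU, HO_TASTPM or HET_TASTPM mice at 18 months. The list summed to 64.0 to 66.7 TPM in TAU mice and 52.1 to 64.0 TPM in wild-type mice, where Cd3e reached at most 0.262 TPM. Levels so far above that of a T cell gene need not come from T cells, so the list cannot tell whether naive T cells changed. Klf2, named after its values were seen, was lower in HET_TASTPM than in wild-type mice at 8 months (-0.87, adjusted p = 0.00491), where 1.32% of all genes tested were lower. Of 2 gamma-delta T cell genes tested, Tcrg-C2 rose in TAU mice, with 0.704 and 1.92 TPM against 0 to 0.417 TPM in wild-type mice (1.46), and neither rose in HO_TASTPM or HET_TASTPM mice.

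Genes of antigen presentation, chemokines and microglia rose in the same mice. Of 9 MHC class I genes tested, which present the peptides that CD8 T cells read, 9 rose in TAU mice, 9 in HO_TASTPM mice and 7 in HET_TASTPM mice, against 11.9%, 6.63% and 4.67% of all genes tested. Of 8 chemokine genes known to draw T cells, 6, 6 and 4 rose in these lines. Cxcl16 had 25.3 and 17.4 TPM in TAU mice (3.77) and 6.43 to 8.22 TPM in HO_TASTPM mice (2.32), against 0.601 to 1.69 TPM in wild-type mice. Ccl4 had 20.7 and 23.4 TPM in TAU mice and 13.1 to 15.8 TPM in HO_TASTPM mice, against 0 to 2.02 TPM in wild-type mice. All 8 microglial genes rose in all 3 lines, and their sum was 1514 and 2429 TPM in the TAU mice, 1312 to 1691 TPM in HO_TASTPM mice and 785 to 1181 TPM in HET_TASTPM mice, against 325 to 371 TPM in wild-type mice. Of 8 Ms4a family genes tested, 5 rose in TAU mice, 1 in HO_TASTPM mice and 1 in HET_TASTPM mice. In HO_TASTPM and HET_TASTPM mice this gene was Ms4a6d (1.38 and 1.29), known from microglia and macrophages.

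Markers of blood, vessels, border tissue and neurons were followed in the same libraries. The sum of 6 choroid plexus genes was 27372 TPM in TAU mouse 1149 and 243 TPM in mouse 1150, and 3442 and 3639 TPM in HO_TASTPM mice 113 and 154 and 19.95 TPM in mouse 97, against 56.3 to 14561 TPM in wild-type mice, and none of the 6 was called. Cd3g, Cd8a, Nkg7 and Ms4a4b were high in both TAU mice, and the part of choroid plexus in their levels was not tested. Without the libraries in which this sum was above 1000 TPM, 1 mouse was left in each of these groups, TAU mouse 1150 and HO_TASTPM mouse 97, and the lone mouse was assumed to vary like the other groups. In that fit 6 members were called in the TAU mouse. None was called in the HO_TASTPM mouse, where the differences of the 5 members ran from 0.42 for Cd8b1 to 1.01 for Nkg7, with Ms4a4b at 0.95. Meningeal genes summed to 174 and 60.4 TPM in TAU mice and 65.8 to 122 TPM in HO_TASTPM mice, against 29.6 to 244 TPM in wild-type mice, and none of the 6 was called.

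Some markers of blood and vessels were higher in the mice in which the members were high, where 11.9% of all genes tested were higher in TAU mice and 6.63% in HO_TASTPM mice. Vascular adhesion genes summed to 50.4 to 85.8 TPM in TAU mice and 28.3 to 29.8 TPM in HO_TASTPM mice, against 13.4 to 36.9 TPM in wild-type mice. Of 5 tested, Icam1 and Vcam1, which bind leukocytes at the vessel wall, rose in TAU mice (2.14 and 1.89), and Icam1 rose in HO_TASTPM mice (1.45). Genes of monocytes and border macrophages summed to 11.7 and 9.58 TPM in TAU mice and 7.27 to 11.8 TPM in HO_TASTPM mice, against 4.45 to 9.06 TPM in wild-type mice. Of 8 tested, Ccr2, a chemokine receptor of monocytes, and Mrc1, a receptor of border macrophages, rose in TAU mice (0.73 and 1.15), and none rose in HO_TASTPM mice. Red blood cell genes summed to 1337 and 1937 TPM in TAU mice and 982 to 1496 TPM in HO_TASTPM mice, against 490 to 1251 TPM in wild-type mice, with 1 of 5 called higher in TAU mice and none in HO_TASTPM mice. Neutrophil genes summed to 8.51 and 17.1 TPM in TAU mice and 1.85 to 4.49 TPM in HO_TASTPM mice, against 1.88 to 10.2 TPM in wild-type mice, with 2 of 5 called higher in TAU mice. Ly6g, their defining marker, was listed at 0 in every TAU and HO_TASTPM library at 18 months. It was also listed at 0 in every wild-type library at 2, 4 and 8 months. B and plasma cell genes summed to 43.2 and 89.5 TPM in TAU mice and 43.0 to 48.6 TPM in HO_TASTPM mice, against 16.3 to 33.5 TPM in wild-type mice, with 2 of 7 called higher in TAU mice and 1 in HO_TASTPM mice. Igkc, an antibody light chain gene, had 31.2 and 9.96 TPM in TAU mice and 0 to 1.11 TPM in HO_TASTPM mice, against 0.424 to 3.70 TPM in wild-type mice. Hippocampal neuron genes summed to 497 to 757 TPM in TAU mice and 415 to 628 TPM in HO_TASTPM mice, against 742 to 994 TPM in wild-type mice. Of 20 tested, Wfs1 and Nos1 fell in TAU mice (-1.34 and -1.19), where 10.5% of all genes tested were lower, and none was called in HO_TASTPM mice. Of 12 genes of neighbouring regions tested, 2 rose in HO_TASTPM mice and none was called in TAU mice. The part of blood, vessels, border tissue, neighbouring regions and neuron content in the members' levels was not tested.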

How the data were processed

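Hippocampal RNA of the 89 mice and of 1 further line was measured by stranded poly(A) RNA-seq in paired reads. The authors trimmed reads with Trim Galore, quantified transcripts of the Ensembl GRCm38 release by Salmon, joined them per gene through tximport, and deposited TPM values, which have the same sum in each library. No version of Trim Galore, Salmon or tximport was found in the labels or methods, which state a sequencing target, and the depth of each library cannot be read from TPM. The labels number the mice but say nothing more of their origin. The methods describe the controls as littermates from the parental lines, and the labels do not give the line each wild-type mouse came from. The p-values therefore measure the spread between these mice, pooled over the groups.

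From the deposited TPM, log2(TPM + 0.5) was fitted with limma 3.58.1 (R 4.3.3, trend in the prior variance, 24 groups of line and age, 79 residual degrees of freedom) over the 26272 genes whose average reached 0.5 TPM in any of the groups, with Benjamini-Hochberg adjustment and a threshold of 0.05. The fit was tested on simulated data. A line of 14 mice took part in the fit and its results are not reported here. The 27 comparisons were each line against wild-type mice at each age, 18 against 2 months within lines, the difference of these changes from wild-type mice, and 3 comparisons between lines. Named genes were the 9 members, the 4 genes of each list with the smallest p in TAU and in HO_TASTPM mice against wild-type mice at 18 months, and the 10 genes most correlated with the members' mean. The 9 genes and the lists were chosen with earlier results of these data known. Alternatives were other pseudocounts (0.1 and 1), no filter, the study's filter on mean log2 values, quantile normalization and no trend. Lane was also used as a covariate, which is the lane number in the library headers and can pool more than 1 physical lane. The rest were a fit of only the groups compared, and fits without each mouse and without sets of libraries. Sequences came from RefSeq (GRCm38.p6) and positions from a GENCODE annotation of GRCm38.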

Additional observations from a re-analysis of the deposited data

Results flagged for a closer look

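In 142 pairs of a gene and a group of 4 to 8 libraries, 18 had 1 library far from the others of its group by Dixon's criterion. Chance would give about 7.1 if the values were normally distributed. Near the floor they are not, and where all others are listed at 0 the remaining library stands apart by construction. The excess over 7.1 is therefore no evidence of unusual mice. Each is given with the nearest other library of the group. In wild-type mice these were Cd3e at 2 months (mouse 1824, 0.730 TPM, next 0.248) and 4 months (mouse 2434, 0.214 TPM, next 0.0892), Cd3g at 2 months (mouse 2360, 0.524 TPM, next 0.237), Cd8b1 at 2 months (mouse 2398, 0.00607 TPM, next 0.00287) and 8 months (mouse 1472, 0.186 TPM, next 0.0793), and Ms4a4b at 8 months (mouse 2417, 1.27 TPM, next 0.499). In HET_TASTPM mice they were Cd3d at 8 months (mouse 478, 11.1 TPM, next 2.96), Cd3e at 4 months (mouse 832, 0.698 TPM, next 0.0431), Cd8b1 at 4 months (mouse 835, 0.0988 TPM, next 0.0024) and 8 months (mouse 460, 0.0969 TPM, next 0.00496), Trbc2 at 8 months (mouse 476, lowest, 0.0225 TPM, next 0.833) and Nkg7 at 18 months (mouse 492, 0.607 TPM, next 0.254). In TAS10 mice Cd8b1 stood apart at 2 months (mouse 2425, 0.212 TPM, next 0.00249). In TAU mice they were Cd8b1 at 8 months (mouse 1461, 0.103 TPM, next 0.00155), Nkg7 at 2 months (mouse 1826, 0.360 TPM) and 8 months (mouse 1463, 0.155 TPM), and Gzma at 4 months (mouse 1818, 0.138 TPM) and 8 months (mouse 1494, 0.402 TPM), and in these last 4 groups the other libraries were listed at 0.

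In 8 cases the change between 2 and 18 months differed between a line and wild-type mice by the test of the difference itself (limma, adjusted over all genes tested). In HO_TASTPM mice these were Ms4a4b (1.45, adjusted p = 0.00356) and Nkg7 (1.31, adjusted p = 0.0149). In TAU mice they were Nkg7 (2.73, adjusted p = 1.15e-07), Ms4a4b (2.55, adjusted p = 2.39e-07), Cd3g (2.36, adjusted p = 9.03e-07), Cd8a (1.44, adjusted p = 1.08e-08), Cd3e (1.36, adjusted p = 0.0260) and Cd8b1 (0.92, adjusted p = 5.11e-04).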

How the results depend on the processing

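Of 40 calls of a member in a comparison, 13 held under every setting and every fit without 1 mouse in which the gene was tested, and 19 were lost without 1 mouse. None changed direction. Numbers of members called are given below, and the cause was not tested unless stated. A pseudocount of 0.1 gave 0 in HO_TASTPM mice at 4 months, 1 in HET_TASTPM mice at 18 months and 2 in HO_TASTPM against TAU mice. The study's filter left 5 of the 9 members to test and gave 0 in HO_TASTPM mice at 4 months, 2 at 18 months, 1 in HET_TASTPM and 3 in TAU mice at 18 months, 2, 1 and 3 between 18 and 2 months in HO_TASTPM, HET_TASTPM and TAU mice, and 3 for the TAU change minus the wild-type change. Quantile normalization gave 0 in HO_TASTPM mice at 4 months. Quantile normalization and lane as a covariate each gave 3 in HO_TASTPM mice at 18 months, 2 between 18 and 2 months there, 2 for the HET_TASTPM change minus the wild-type change, and 0 and 1 for HO_TASTPM against HET_TASTPM mice at 8 and 18 months. No filter gave 1 for the HET_TASTPM change minus the wild-type change and 0 for HO_TASTPM against HET_TASTPM mice at 8 months, and no trend gave 1 for that change.

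Without the libraries set apart the count was 0 in HO_TASTPM mice at 4 months and HET_TASTPM mice at 8 months and 1 for the HET_TASTPM change minus the wild-type change. Sets of libraries chosen after seeing the data were also left out. Without those against their label HO_TASTPM mice at 8 months had 2. Without those high in choroid plexus genes the count was 0 in HO_TASTPM mice at 4 and 18 months, HET_TASTPM mice at 8 months and the HO_TASTPM change minus the wild-type change, and 1 between 18 and 2 months in HO_TASTPM mice, with fewer mice left, and no HET_TASTPM library at 2 months was left to fit. A fit of only the groups compared tested fewer members and gave 3 in HO_TASTPM mice and 0 in HET_TASTPM mice at 18 months, 0 in HET_TASTPM mice at 8 months, 0, 0 and 3 between 18 and 2 months in HO_TASTPM, HET_TASTPM and TAU mice, 0 and 1 for HO_TASTPM against HET_TASTPM mice at 8 and 18 months, and 0 for HO_TASTPM against TAU mice.

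Leaving out 1 mouse gave 4 to 6 in TAU mice at 18 months, 1 to 5 in HO_TASTPM and 0 to 2 in HET_TASTPM mice. It gave 0 to 1 in HO_TASTPM mice at 4 months, 0 to 2 at 8 months, 0 to 1 in HET_TASTPM mice and TAU mice at 8 months, and 0 to 1 for HO_TASTPM against HET_TASTPM mice at 8 months. For 18 against 2 months it gave 0 to 2 in HET_TASTPM mice, and for the change minus that of wild-type mice 0 to 3 in HO_TASTPM and 0 to 2 in HET_TASTPM mice. The TAU counts at 18 months fell to 4 without mouse 1150, where Cd3e was lost and Cd8b1 was not tested, with the lone mouse assumed to vary like the other groups. The Trbc2 difference at 8 months, where the wild-type level was higher than at other ages, was called in TAU and HO_TASTPM mice without wild-type mouse 1472. No paired analysis was possible because the labels give no replicate numbers that groups share. Low TPM, unknown depth and 2 TAU mice at 18 months limit all of these values.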
